A study of Homo sapiens with 12 samples.

Results

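The 10 genes described here belong to the NF-kB system and were followed across the 4 groups of the study. They are the subunit genes NFKB1, NFKB2, RELA and RELB, the inhibitor genes NFKBIA, NFKBIB and NFKBIE and the related gene NFKBIZ. TNFAIP3 and BIRC3 are the feedback genes. The 10 genes were chosen by symbol, with earlier results of these data known. All 10 of the 10 were found once in each of the authors' tables, among 13554 and 13583 listed genes. The cells were SW480, a line established from a human colon adenocarcinoma, stably transfected in 4 ways. The line shGPD1L carried a short hairpin RNA against GPD1L and shNC a control hairpin, and the line OE overexpressed GPD1L while Vector carried its control vector. GPD1L encodes a relative of the cytosolic glycerol-3-phosphate dehydrogenase, and the series title links it to tumour suppression and to ferroptosis, an iron-dependent form of cell death. Each group had 3 poly(A) RNA libraries. Whether a line was a clone or a pool, and whether its libraries are separate cultures, is not given in the sources used here, so the error behind every p-value is the spread among these libraries, which may be technical. What the hairpin or the selection of a line did cannot be told apart from what the changed GPD1L level did.

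NF-kB is a family of dimeric transcription factors. RELA and the p50 protein made from NFKB1 form the main dimer of the canonical pathway, and RELB and the p52 protein made from NFKB2 that of the non-canonical pathway. The IkB proteins of NFKBIA, NFKBIB and NFKBIE hold dimers in the cytoplasm until the IkB kinase complex marks them for degradation, and NFKBIZ encodes an atypical, nuclear IkB protein that modulates transcription of a subset of targets. NFKBIA, TNFAIP3, BIRC3, NFKB2 and RELB are themselves known NF-kB target genes, so that the pathway feeds back on its own parts. In colon epithelium NF-kB is known for survival and inflammatory signalling.

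Values are FPKM, fragments scaled to transcript length and to the mapped fragments of the library, a scale on which levels can be set beside each other between genes. Differences are of log2(FPKM + 1) unless another scale is named, which understates the change of genes with low FPKM. A gene was called where the Benjamini-Hochberg adjusted p of limma, over all genes tested in the table, was under 0.05. All 10 genes passed the filter of a mean of 1 FPKM in both tables. The targeted gene matched the labels: GPD1L was at 8.68, 8.01 and 9.10 FPKM in shNC against 1.55, 1.26 and 2.23 FPKM in shGPD1L, and at 10.7, 10.2 and 11.1 FPKM in Vector against 22.3, 22.8 and 22.1 FPKM in OE. Of 12 epithelial markers 11 and 12 were listed in the knockdown and overexpression tables, with summed levels per library of 5260 to 5640 FPKM in shNC, 4460 to 4640 in shGPD1L, 4080 to 4240 in Vector and 4410 to 4550 in OE. The keratin genes KRT8, KRT18 and KRT19 make up most of that sum and were the 3 of 11 tested markers called higher in OE, while 7 were called lower, with a list median of -0.28 and differences of -0.70 for CDX1, -0.59 for CDX2, -0.52 for VIL1 and -0.31 for CDH1. In the knockdown 1 of 11 was called, ELF3, which was lower. Of 21 markers of other cell types 6 were listed (CD14, CD68, COL1A1, PDGFRB, ACTA2 and DES), with summed levels of 44.2 to 49.8 FPKM in shNC, 31.0 to 51.8 in shGPD1L, 35.7 to 37.1 in Vector and 31.4 to 32.6 in OE. Of the 5 tested in the overexpression 3 were called lower, DES (-1.08), CD14 (-0.64) and PDGFRB (-0.41), with a list median of -0.41, and of the 4 tested in the knockdown 0 were called by limma, with 1 at an unadjusted p under 0.05. The part of these marker differences in the results was not tested. The library shGPD1L replicate 3 stood apart on the first principal component, at 29.1 against -12.1 to 0.319 in the other 5 libraries of its table. The listed values summed to between 421714 and 444794 FPKM per library, and read depth is unknown.

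The sequences before the start sites show which of these genes carry the recognition sequence of their own family close to the start. RefSeq starts on GRCh38.p14 were found for 8 of the 10 genes, 14 starts in all; RELB and NFKBIE had no entry. The 250 bases before each start were searched on both strands for the 10-base kappa-B consensus, the only motif searched. It was found before 9 of the 14 starts, in 7 genes and 12 places, against 6.88% of all 35116 promoters of the table and 8.29% of those of genes tested in the overexpression. RELA was the gene with starts and no match, which says only that these letters are not in this window. The genes were chosen as NF-kB genes, so these counts are descriptions. The NFKBIA sequence is shown whole because that gene fell in OE, and the others as windows of 30 bases around a match, each 5′ to 3′ on the strand of its gene with the kappa-B match in capitals. NFKB2 is shown at 2 of its starts and NFKBIZ at its upstream start, since both genes changed in OE. A match does not separate the called genes. NFKB1, NFKBIB, TNFAIP3 and BIRC3 have matches and were not called in OE, and RELA was called without one. The windows shown for NFKB1, NFKB2, TNFAIP3 and NFKBIB overlap annotated exons of the same gene.
NFKBIA chr14:35404750-35404999 (minus strand): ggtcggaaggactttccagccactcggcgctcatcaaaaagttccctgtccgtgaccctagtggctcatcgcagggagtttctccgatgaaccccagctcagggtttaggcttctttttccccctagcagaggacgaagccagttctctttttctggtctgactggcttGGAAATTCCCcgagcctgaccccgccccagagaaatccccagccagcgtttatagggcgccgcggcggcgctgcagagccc
NFKB2 chr10:102394461-102394490 (plus strand): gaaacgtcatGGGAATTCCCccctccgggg
NFKB2 chr10:102395674-102395703 (plus strand): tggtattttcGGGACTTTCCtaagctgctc
NFKBIZ chr3:101827757-101827786 (plus strand): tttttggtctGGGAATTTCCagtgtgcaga
TNFAIP3 chr6:137867188-137867217 (plus strand): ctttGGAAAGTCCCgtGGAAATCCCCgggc
BIRC3 chr11:102317275-102317304 (plus strand): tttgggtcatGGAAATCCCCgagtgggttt
NFKB1 chr4:102501300-102501329 (plus strand): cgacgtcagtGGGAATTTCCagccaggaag
NFKBIB chr19:38899931-38899960 (plus strand): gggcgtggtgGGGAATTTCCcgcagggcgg
The NFKBIA match lay 72 to 81 bases before the start, and the NFKB1 match 40 to 49 bases before it. The NFKB2 windows lie before different starts, with matches 98 to 107 and 12 to 21 bases upstream. In TNFAIP3, 2 matches lay within the same 30 bases, 46 to 67 bases before the start. The matches of NFKBIZ and BIRC3 were farther out, 214 to 223 and 190 to 199 bases, and that of NFKBIB was 19 to 28 bases upstream.

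When GPD1L was raised, 3 of the 4 subunit genes rose. Of the inhibitor genes NFKBIA fell, while NFKBIB and NFKBIE were not called, and the nuclear IkB gene NFKBIZ fell as well. NFKB2, RELA and RELB were each 25 to 30% higher in OE than in Vector, and NFKBIA and NFKBIZ were 22 and 28% lower. The 5 called genes of 10 stand beside 22.4% of the 12208 genes tested in this comparison, the 3 higher beside 12.2% and the 2 lower beside 10.3%. Since the 10 genes were chosen with earlier results of these data known, these shares describe the set and test nothing. The 10 genes had a median difference of 0.11, against 0.02 over all genes tested. Groups did not overlap for 6 of the 10 genes, against 41.8% of all genes, and 5 had an unadjusted limma p under 0.05, against 37.9%.

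Among the subunits, NFKB2 (ENSG00000077150, chromosome 10, 102394110 to 102402529, plus strand, GRCh38) was the most abundant of the 10 genes in all 4 groups. Its 3 Vector libraries had 27.9, 28.5 and 27.5 FPKM, against 35.9, 35.2 and 35.7 FPKM in OE. Every OE library lay above every Vector library by more than the spread of either group. NFKB2 rose from a mean of 27.9 ± 0.503 FPKM to one of 35.6 ± 0.370 FPKM (SD, n = 3 each), by 0.34 on the log2 scale (SE 0.0427; limma adjusted p = 0.00183). RELA (ENSG00000173039, chromosome 11, 65653596 to 65663094, minus strand), the main transactivating subunit, was at 23.2, 23.3 and 22.2 FPKM in Vector against 26.5, 30.3 and 29.2 FPKM in OE. The groups did not overlap, and the OE libraries were the more variable. The RELA difference was 0.31 (SE 0.0589; limma adjusted p = 0.00861). RELB (ENSG00000104856, chromosome 19, 45001430 to 45038198, plus strand), the partner of p52, was at 9.82, 9.19 and 8.55 FPKM in Vector against 11.6, 12.5 and 11.7 FPKM in OE. Again all 3 OE libraries were above all 3 Vector libraries, with a difference of 0.35 (SE 0.0659; limma adjusted p = 0.00891). NFKB1 (ENSG00000109320, chromosome 4, 102501329 to 102617302, plus strand), the p50 gene, was at 8.78 ± 0.608 FPKM in Vector against 8.50 ± 0.543 FPKM in OE (SD, n = 3 each), with overlapping groups. Its interval on the log2 scale ran from -0.21 to 0.12 (95%, limma), which lies below the differences of the other 3 subunits. The ratio of NFKB2 to NFKB1 within a library was 2.94 to 3.4 in Vector and 3.91 to 4.50 in OE.

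**Figure D1:**
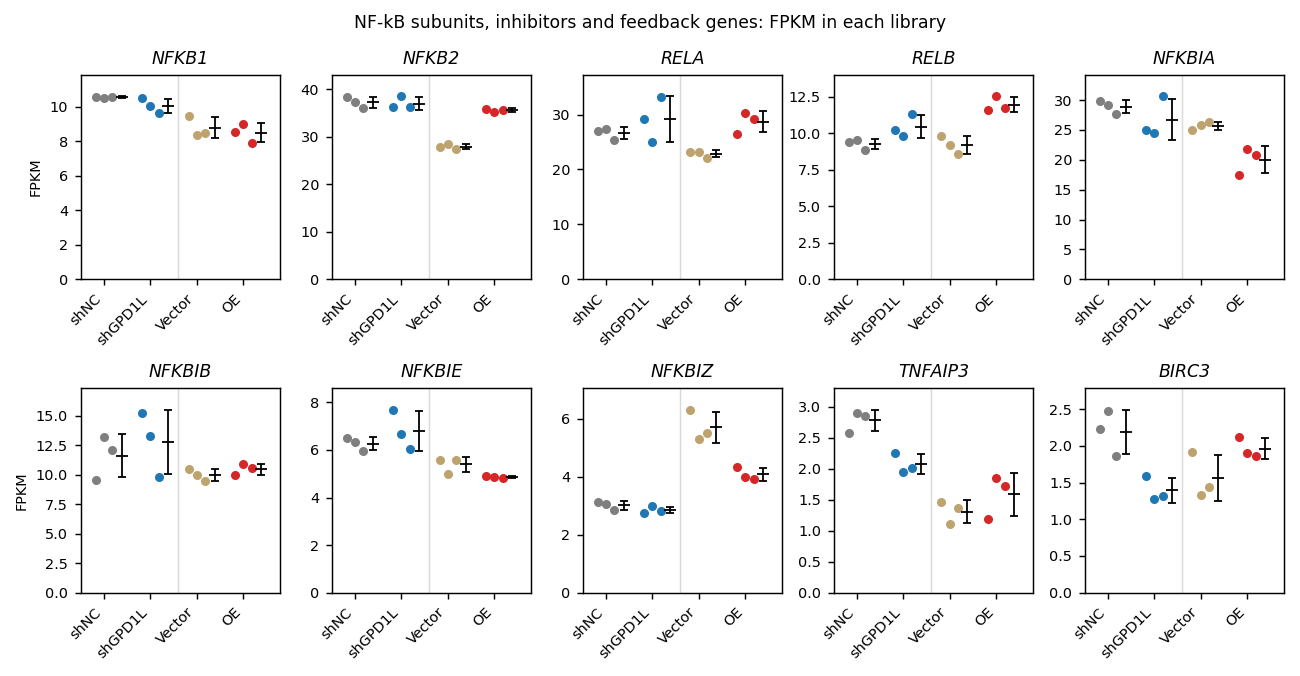
FPKM of each of the 10 genes (one panel per gene, vertical axis from 0) in the 3 libraries of each group, with the mean and SD beside the points. NFKB2, RELA and RELB lie higher in OE than in Vector and NFKBIA and NFKBIZ lower, with no overlap between the groups. TNFAIP3 and BIRC3 lie lower in shGPD1L than in shNC, but neither was called there.

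Among the IkB genes, NFKBIA (ENSG00000100906, chromosome 14, 35401511 to 35404749, minus strand), which encodes IkB-alpha, the rapidly resynthesized brake of the canonical pathway, was at 25.0, 25.8 and 26.3 FPKM in Vector against 17.4, 21.9 and 20.8 FPKM in OE. All OE libraries were below all Vector libraries, and OE replicate 1 was the lowest. NFKBIA fell by 0.35 on the log2 scale (SE 0.0794; limma adjusted p = 0.0176). The call was lost without Vector replicate 2 or Vector replicate 3, at limma adjusted p-values of 0.0556 and 0.0506, in a range of 0.0138 to 0.0556 over 16 alternatives. NFKBIZ (ENSG00000144802, chromosome 3, 101827991 to 101861022, plus strand) was at 6.32, 5.30 and 5.51 FPKM in Vector against 4.34, 4.00 and 3.91 FPKM in OE. The groups did not overlap, and NFKBIZ fell by 0.40 (SE 0.0806; limma adjusted p = 0.0112), the largest difference among the 10 genes in OE. NFKBIE (ENSG00000146232, chromosome 6, 44258166 to 44265788, minus strand), the IkB-epsilon gene, was at 5.39 ± 0.335 FPKM in Vector against 4.87 ± 0.0501 FPKM in OE (SD, n = 3 each). Its groups did not overlap, but it was not called (limma adjusted p = 0.232). NFKBIB (ENSG00000104825, chromosome 19, 38899700 to 38908893, plus strand), the IkB-beta gene, was at 9.96 ± 0.509 and 10.5 ± 0.472 FPKM (SD, n = 3 each), a difference of 0.07 with an interval from -0.08 to 0.21 (95%, limma). It shares exonic sequence with SIRT2 on the other strand, whose reads may not have been separated; the SIRT2 difference was 0.02.

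The feedback genes were low and did not pass the test in OE. TNFAIP3 (ENSG00000118503, chromosome 6, 137867188 to 137883312, plus strand), which encodes the ubiquitin-editing inhibitor A20, was at 1.46, 1.10 and 1.36 FPKM in Vector against 1.19, 1.85 and 1.72 FPKM in OE. The groups overlapped through OE replicate 1 (limma adjusted p = 0.391). BIRC3 (ENSG00000023445, chromosome 11, 102317450 to 102339403, plus strand), which encodes the ubiquitin ligase and apoptosis inhibitor cIAP2, was at 1.91, 1.33 and 1.44 FPKM in Vector against 2.12, 1.90 and 1.86 FPKM in OE. Its groups overlapped slightly, through Vector replicate 1 (limma adjusted p = 0.184). TNFAIP3 and RELA overlap antisense genes in exonic sequence that are not analysed here.

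When GPD1L was lowered, none of the 10 genes was called: limma with Benjamini-Hochberg adjustment gave 0 of 10, against 0.592% of the 12156 genes tested (0.115% higher and 0.477% lower), and 2 of 10 had an unadjusted limma p under 0.05, against 16.3%. No alternative setting changed this count of 0, including the one without shGPD1L replicate 3. Over all genes these alternatives called 0 to 608, so a constant count of 0 among 10 genes says little about these genes. Groups did not overlap for 4 genes, against 24.7% of all genes: NFKB1, RELB, TNFAIP3 and BIRC3. The median difference of the 10 genes was -0.03, against -0.04 over all genes tested. The 2 feedback genes had the largest differences. BIRC3 was at 2.23, 2.47 and 1.86 FPKM in shNC against 1.59, 1.28 and 1.31 FPKM in shGPD1L. Each shGPD1L library was below each shNC library, with a log2 difference of -0.41 (SE 0.121; limma adjusted p = 0.174). TNFAIP3 was at 2.58, 2.90 and 2.85 FPKM in shNC against 2.26, 1.95 and 2.02 FPKM in shGPD1L, also without overlap. Its difference was -0.30 (SE 0.101; limma adjusted p = 0.219). Without shGPD1L replicate 3 the differences of BIRC3 and TNFAIP3 were -0.39 and -0.28, with limma adjusted p-values of 0.128 and 0.163.

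The subunit and IkB genes differed less in the knockdown. NFKB2 was at 37.3 ± 1.21 FPKM in shNC against 37.0 ± 1.30 FPKM in shGPD1L (SD, n = 3 each), with an interval of the log2 difference from -0.18 to 0.16 (95%, limma). RELB was at 9.40, 9.52 and 8.86 FPKM in shNC against 10.2, 9.80 and 11.3 FPKM in shGPD1L, a difference of 0.16 (limma adjusted p = 0.408). RELA, RELB and NFKBIA were the genes in which shGPD1L replicate 3 was the highest of the 6 libraries. RELA was at 27.0, 27.4 and 25.4 FPKM in shNC against 29.2, 25.0 and 33.3 FPKM in shGPD1L. NFKBIA was at 29.9, 29.2 and 27.7 FPKM in shNC against 25.1, 24.5 and 30.6 FPKM in shGPD1L. Their differences were 0.12 and -0.12 with all libraries and 0.02 and -0.22 without shGPD1L replicate 3, where the limma adjusted p-values were 0.906 and 0.104. NFKB1 was at 10.6 ± 0.0411 and 10.1 ± 0.419 FPKM, NFKBIE at 6.27 ± 0.285 and 6.79 ± 0.841 FPKM, and NFKBIZ at 3.01 ± 0.141 and 2.86 ± 0.116 FPKM in shNC and shGPD1L (SD, n = 3 each). NFKBIB ranged from 9.59 to 13.2 FPKM in shNC and from 9.82 to 15.2 FPKM in shGPD1L, the widest relative spread of the 4 IkB genes.

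**Figure D2:**
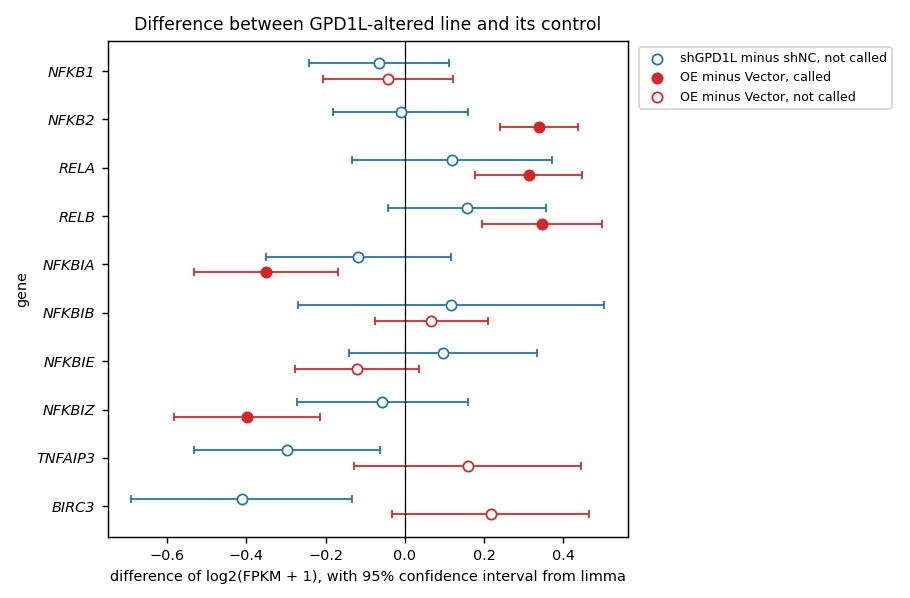
Difference of log2(FPKM + 1) between the GPD1L-altered line and its control for the 10 genes (horizontal axis), blue for shGPD1L minus shNC and red for OE minus Vector, with 95% confidence intervals from limma. Filled points passed the adjusted threshold: NFKB2, RELA, RELB, NFKBIA and NFKBIZ in OE, and none in the knockdown.

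The difference between the 2 effects was tested over all 12 libraries, as OE minus Vector less shGPD1L minus shNC. It was called for 2 of the 10 genes, both toward higher values in OE, against 14.1% of the 11208 genes tested in either direction and 9.14% toward higher values, and 4 had an unadjusted limma p under 0.05, against 29.7%. NFKB2 had a difference of effects of 0.35 (SE 0.0750; limma adjusted p = 0.0116), since it rose in OE and was nearly level in shGPD1L. BIRC3 had one of 0.63 (SE 0.154; limma adjusted p = 0.0210), with lower values in 3 of 3 shGPD1L libraries and a higher mean in OE, neither of which was called alone. The BIRC3 result was lost without Vector replicate 2 or OE replicate 1, at adjusted p-values of 0.0588 and 0.0578, in a range of 0.0146 to 0.0588 over 21 alternatives. TNFAIP3, with the same signs as BIRC3, had a difference of effects of 0.46 (limma adjusted p = 0.0694), and NFKBIZ of -0.34 (adjusted p = 0.0596). TNFAIP3 passed without OE replicate 1 (adjusted p = 0.0325) and NFKBIZ without shGPD1L replicate 3 (adjusted p = 0.0483), with median-of-ratios scaling (0.0381), with quantile normalization (0.0303) and without the intensity trend (0.0438). For RELA, RELB and NFKBIA the effects had the same sign in both comparisons, and their difference was 0.19, 0.19 and -0.23, not called at limma adjusted p-values of 0.339, 0.245 and 0.269.

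Ratios within a library are free of the scaling between libraries and tables. They were chosen after the values had been seen and are given without a test. They are ratios of RNA, so they measure neither protein amounts nor NF-kB activity. The ratio of RELA to its inhibitor NFKBIA was 0.903, 0.940 and 0.916 in shNC and 1.16, 1.02 and 1.09 in shGPD1L. It was 0.929, 0.900 and 0.841 in Vector and 1.52, 1.39 and 1.40 in OE. Both controls thus lay under 1 in all 6 libraries and both GPD1L-altered lines above 1 in all 6, with the larger ratio in OE. Neither RELA nor NFKBIA was called in the knockdown. There the ratio of NFKB2 to NFKBIA overlapped, at 1.28 to 1.30 in shNC and 1.18 to 1.57 in shGPD1L. That of RELB to NFKBIA did not, at 0.314 to 0.327 in shNC and 0.370 to 0.408 in shGPD1L. The ratio of the summed FPKM of the 4 subunit genes to that of NFKBIA, NFKBIB and NFKBIE was 1.68 ± 0.0557 in Vector and 2.40 ± 0.134 in OE (SD, n = 3 each). In the knockdown it was 1.79 ± 0.0609 in shNC and 1.87 ± 0.0767 in shGPD1L, where the libraries overlapped.

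**Figure D3:**
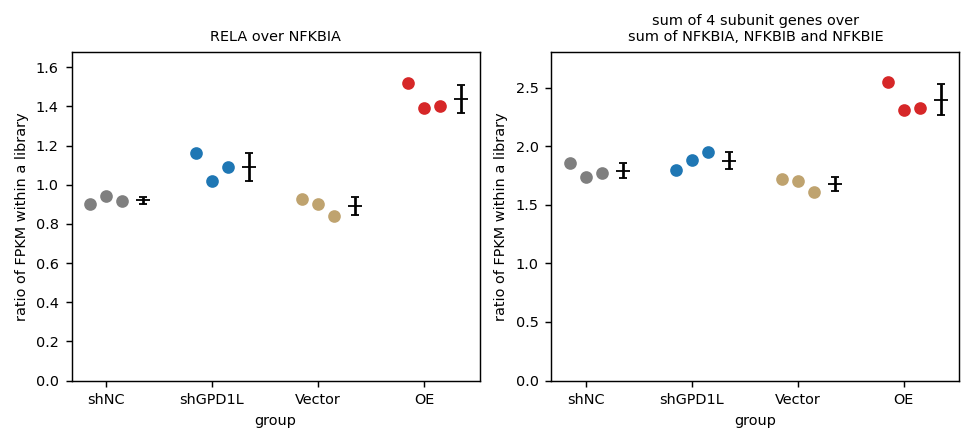
Ratio of RELA to NFKBIA (left) and of the summed subunit genes to the summed inhibitor genes (right), each from the FPKM of 1 library, by group, with the mean and SD beside the points and vertical axes from 0. The OE libraries have the highest ratios, 1.39 to 1.52 on the left and 2.31 to 2.55 on the right.

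The order of the genes was similar in the 4 groups. NFKB2 was highest, RELA and NFKBIA followed at 20.05 to 29.14 FPKM on average, then NFKB1, NFKBIB and RELB at 8.50 to 12.8 FPKM, NFKBIE and NFKBIZ at 2.85 to 6.79 FPKM, and TNFAIP3 and BIRC3 at 1.31 to 2.78 FPKM. RELA exchanged places with NFKBIA: it was below NFKBIA in shNC and Vector and above it in shGPD1L and OE. The control lines also stood apart from each other, although they lie in tables that may have been normalized separately, so that this was not tested. NFKBIZ ranged from 2.85 to 3.12 FPKM in shNC and from 5.30 to 6.32 FPKM in Vector, and relative to NFKBIA in the same library it was 0.103 to 0.105 in shNC and 0.205 to 0.253 in Vector. TNFAIP3 ranged from 2.58 to 2.90 FPKM in shNC and from 1.10 to 1.46 FPKM in Vector. NFKB2 in OE, at 35.2 to 35.9 FPKM, lay above Vector (27.5 to 28.5 FPKM) and just under shNC (36.02 to 38.44 FPKM). By mean level, NFKB1 was ordered shNC, shGPD1L, Vector and OE, where Vector and OE were the one pair of neighbours whose libraries overlapped, and BIRC3 shNC, OE, Vector and shGPD1L, with every neighbouring pair overlapping.

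The other genes of the pathway were taken from 5 lists. These lists were also chosen with earlier results of these data known, so their counts are descriptions. In OE, of 18 tested kinases and ubiquitin ligases that activate the pathway 6 were higher and 0 lower, beside 12.2% higher and 10.3% lower over all genes tested, with a median difference of 0.13 against 0.02. TBK1, an IkB kinase-related kinase, rose from 14.6 ± 0.680 to 18.3 ± 0.0249 FPKM (SD, n = 3 each), and XIAP, a ubiquitin ligase and apoptosis inhibitor, from 9.33 ± 0.251 to 11.8 ± 0.418 FPKM. The IkB kinase subunit genes CHUK (difference 0.16) and IKBKG (0.22) were called at limma adjusted p-values of 0.0410 and 0.0480, but without any 1 of the 6 libraries both calls were lost, and the count of the list was 2 or 3. With median-of-ratios scaling it was also 2. IKBKB, the catalytic subunit gene of the canonical pathway, and MAP3K14, the kinase of the non-canonical pathway, had differences of 0.09 and 0.06 (limma adjusted p = 0.372 and 0.612). Of 23 receptors and adaptors 0 were higher and 2 lower, beside 22.4% called over all genes: the tumour necrosis factor receptor gene TNFRSF1B (difference -0.37) and the Toll-like receptor adaptor gene MYD88 (-0.40). With library totals set equal, 5 members of that list were called, 3 of them higher.

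Of 8 further subunits and cofactors 2 were higher in OE, among them the acetyltransferase gene CREBBP (difference 0.25); the CREBBP call was lost without Vector replicate 1, 2 or 3 or OE replicate 2 or 3, and with quantile normalization. REL, the c-Rel subunit gene, was at 1.53 ± 0.0278 FPKM in Vector against 1.71 ± 0.151 FPKM in OE (SD, n = 3 each; limma adjusted p = 0.446), and BCL3, an atypical IkB gene, at 19.7 ± 1.32 and 19.2 ± 2.53 FPKM (adjusted p = 0.760). Of 17 further negative regulators 2 were higher: TAX1BP1, an adaptor for A20 (0.42), and COMMD1 (0.28), whose call was lost without Vector replicate 2 or 3 or OE replicate 1, 2 or 3. The deubiquitinase gene CYLD had a difference of -0.06 (adjusted p = 0.753).

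Of 24 tested known target genes 3 were higher and 5 lower in OE, beside 12.2% higher and 10.3% lower over all genes, which also moved both ways. The prostaglandin synthase gene PTGS2 (difference 0.79), the transcription factor gene KLF6 (0.57) and the early response gene IER3 (0.52) rose, while the chemokine gene CX3CL1 (-0.98), the macrophage growth factor gene CSF1 (-0.41) and the transcription factor gene MYC (-0.38) were the largest falls. The neutrophil chemokine genes CXCL8 and CXCL1 were at 6.20 ± 0.761 against 4.77 ± 0.526 FPKM and at 1.34 ± 0.507 against 1.69 ± 0.373 FPKM in OE and Vector (SD, n = 3 each; limma adjusted p = 0.0505 and 0.391). CXCL8 passed without Vector replicate 2 or OE replicate 1, with library totals set equal, with the filter at 5 FPKM and with robust fitting. The adhesion gene ICAM1 was at 22.9 ± 0.636 against 24.8 ± 0.860 FPKM (adjusted p = 0.148).

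In the knockdown 0 of the 23, 18, 8 and 17 tested genes of the first 4 lists were called by limma, with 3, 3, 2 and 2 at an unadjusted p under 0.05, and 1 of 27 target genes, the cytokine gene IL32. Over all genes 0.592% were called and 16.3% had an unadjusted p under 0.05. IL32 fell from 13.9 ± 2.00 to 6.44 ± 1.02 FPKM (SD, n = 3 each; limma adjusted p = 0.0337). That call held without shGPD1L replicate 3, where 4 target genes were called, and was lost without any 1 of the other 5 libraries. IL32 was also lower in OE (difference -0.35, adjusted p = 0.0406), a call lost without Vector replicate 1 or 3 or OE replicate 1 or 3, with library totals set equal and without the intensity trend. BCL3 had the largest difference of the cofactors, 0.50 (adjusted p = 0.147). CSF1 was at 10.3 ± 0.723 FPKM in shNC against 14.7 ± 0.787 FPKM in shGPD1L (n = 3 each, ± SD; limma adjusted p = 0.0672), opposite to its fall in OE. Its difference of effects was -0.88 (limma adjusted p = 0.000607) and that of XIAP 0.53 (adjusted p = 0.00441), and both held in all 22 alternatives.

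**Figure D4:**
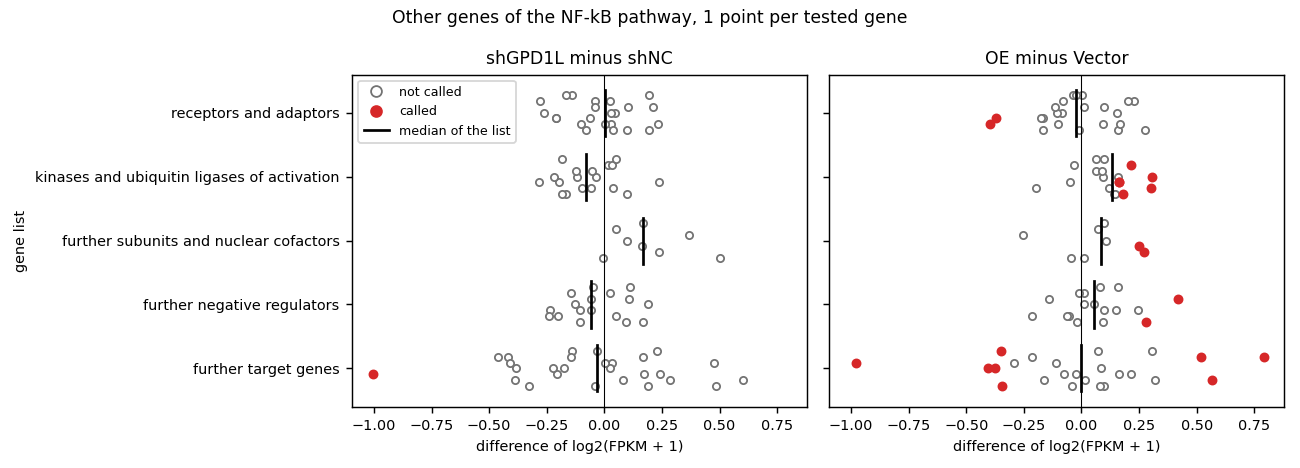
Difference of log2(FPKM + 1) (horizontal axis) of the tested genes of 5 pathway lists (rows), shGPD1L minus shNC on the left and OE minus Vector on the right, with called genes filled red and the median of each list as a black bar. The single called gene on the left is IL32, and the called kinases and ligases on the right lie above 0.

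The pattern of NFKBIA over the 12 libraries, each centred on the mean of its table, was most like those of SLC39A4, SUSD2, SERPINA1, PLEKHA4 and MYC, with Pearson correlations of 0.944, 0.943, 0.943, 0.936 and 0.933. Among the other 9 NF-kB genes the correlation with NFKBIA was highest for NFKBIZ, at 0.636, and lowest for NFKB2, at -0.759. The libraries of a group share their line and every gene of a library its depth, so these values describe these 12 libraries.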

How the data were processed

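Poly(A) RNA of 12 SW480 libraries was sequenced after Trizol extraction, oligo(dT) capture and random-hexamer priming, per the labels' protocols; the protocols mention no strand marking. The authors deposited FPKM in 1 table per comparison, per the file headers and names. Per the submitters' processing notes the tools were HISAT2, StringTie and DESeq2 and the build GRCh38; what each was used for, the annotation and any filter: not given in the sources used here. Libraries were grouped by title, because the genotype field changes the digit within the gene's name from one replicate to the next.

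FPKM were transformed to log2(FPKM + 1). Genes whose mean reached 1 FPKM were tested within each table with limma 3.58.1 (R 4.3.3, intensity trend), and the difference of effects over all 12 libraries, by identifier. The method was tested on simulated data. Of 100 genes given a log2 change of 0.5, up or down, 27 were recovered in the knockdown and 78 in the overexpression. Changes of this size were thus missed more often in the simulated knockdown data. The changed genes were drawn from levels above the means of TNFAIP3 and BIRC3 in either comparison. Recovery at the levels of these genes was not tested. Positions come from GENCODE 29 and promoter sequences from RefSeq. The 10 genes and the lists were chosen with earlier results of these data known. Named pathway genes are up to 3 higher and 3 lower called genes per list and comparison and 10 fixed genes. A gene that this rule names is not reported here. Alternatives covered pseudocounts of 0.1 and 0.5, filters, scalings, eBayes options, a replicate block and leaving out each library. Depth is unknown, so no counting error is given. Plots used matplotlib 3.10.9 (Python 3.11.15).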

Additional observations from a re-analysis of the deposited data

Results flagged for a closer look

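NFKB2 and BIRC3 are listed here because the difference between their changes in the overexpression and in the knockdown passed the threshold when tested itself. NFKB2 differed by 0.35 on the log2(FPKM + 1) scale: it was 0.34 higher in OE than in Vector, in 3 of 3 libraries, and -0.01 from shNC in shGPD1L (limma adjusted p = 0.0116 over 11208 genes). BIRC3 differed by 0.63, from 0.22 in OE and -0.41 in shGPD1L (limma adjusted p = 0.0210), and passed no longer without Vector replicate 2 or OE replicate 1. Neither gene passed with the replicate block. The comparisons share no control libraries. By mean level, NFKB2 was at 27.9 FPKM in Vector, 35.6 in OE, 37.3 in shNC and 37.0 in shGPD1L. Levels were not tested between the comparisons, which may have been normalized separately. BIRC3 lies between 1.28 and 2.47 FPKM in all 12 libraries, and the number of reads behind these values is unknown.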

How the results depend on the processing

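Of the 10 genes, all 10 kept their side of the threshold in every alternative of the knockdown and 9 in the overexpression (NFKBIA is the exception), and 6 in the difference of effects. The alternatives leave out genes under 5 FPKM in 1 setting, so NFKBIZ, TNFAIP3 and BIRC3 have no value there. The count of called NF-kB genes was 0 in every alternative of the knockdown and 4 or 5 in the overexpression. In the difference of effects it was 2, but 1 with the filter at 5 FPKM, 0 with the replicate block and 1 to 3 without any 1 library. Over all genes, 72 were called in the knockdown, 27 with quantile normalization, 3 with the replicate block and 0 to 608 without any 1 library, the highest being without shGPD1L replicate 3; at 0 calls, without shNC replicate 2 or 3, limma gave 1404 and 1128 genes at an unadjusted p under 0.05. In the overexpression 2740 were called, and 1540 to 1982 without any 1 library. In the difference of effects 1584 were called, 483 with the replicate block and 790 to 2572 without any 1 library. Of the 2740, 1484 were higher; with library totals set equal 2441 of 3416 and with median-of-ratios scaling 1252 of 2717. The cause was not tested. Same-numbered libraries shared only a number: their deviations from the group means correlated at -0.18 to 0.0222, so the block is not a pairing of cultures, and it changed none of the calls of the 10 genes within either table. With it the difference of effects of NFKB2 and BIRC3 had limma adjusted p-values of 0.0687 and 0.0529, and the calls of CHUK, IKBKG, CREBBP and COMMD1 in the overexpression and of IL32 in both tables were lost. The group means of both ratios moved by less than 1 SD with quantile normalization. Leaving out 1 of 3 libraries cannot move a mean by 1 SD, so that setting tells nothing about the ratios. These settings, and all alternatives for the pathway lists, were chosen after seeing the data.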
